A study of Mus musculus with 24 samples.

Results

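Messenger RNA levels of 10 immediate early transcription factors were read in 24 RNA-seq libraries of mouse gastrocnemius, the large muscle of the calf. The genes are the AP-1 subunits Fos, Fosb, Fosl2, Jun and Junb, the zinc finger factor Egr1, the orphan nuclear receptors Nr4a1, Nr4a2 and Nr4a3, and Atf3, a factor of the ATF family. They were taken by name, 10 of the 54752 gene identifiers in the count tables, and each symbol matched 1 identifier. The genotype shared by all groups is Numb(f/f)/NumbL(f/f), in which Numb and Numbl are floxed. Flox animals had that genotype alone, and transgene animals also carried HSA-MCM, a Cre recombinase that tamoxifen activates, driven in muscle fibres by the human skeletal actin promoter. Females and males of both kinds received vehicle or tamoxifen, which gives 8 groups of 3 libraries. Tamoxifen in transgene animals is meant to delete Numb and Numbl in fibres, while flox animals show the drug without the recombinase. No age, tamoxifen dose, treatment schedule or time of sampling is given in the sources used here.

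Immediate early genes are transcribed within minutes of a stimulus, without new protein synthesis, and their transcripts decay fast. In muscle they are known to respond to contraction, stretch, injury, stress hormones and cAMP. FOS and JUN proteins pair through leucine zippers into the AP-1 factor, in which FOS proteins need a JUN partner to bind DNA, while JUN proteins can also pair with each other. EGR1 binds GC-rich sites and is itself switched on through serum response factor. NR4A receptors act without a known classical ligand at their NBRE sites, and NR4A1 and NR4A3 are known regulators of glucose and fat metabolism in muscle. ATF3 pairs with other zipper proteins and is a marker of cellular stress.

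The start regions of these genes show what some of them share in sequence. RefSeq promoters of build GRCm38.p6, each 300 bases long from 250 before to 50 after the transcription start, were matched for 9 of the 10 genes. Egr1 had no entry. Of these, 5 are printed 5′ to 3′ on the gene's strand, since the results below turn on the 3 NR4A genes and Fosl2, with Fos for comparison. They lie at chr15:101266596-101266895, plus strand (Nr4a1), at chr2:57123954-57124253, minus strand (Nr4a2), at chr4:48045055-48045354, plus strand (Nr4a3), at chr5:32136222-32136521, plus strand (Fosl2), and at chr12:85473640-85473939, plus strand (Fos). Capitals mark the core of the cAMP response element (CRE), TGACG or CGTCA on the other strand, and EGR sites, GCGNGGGCG or its reverse complement.
Nr4a1: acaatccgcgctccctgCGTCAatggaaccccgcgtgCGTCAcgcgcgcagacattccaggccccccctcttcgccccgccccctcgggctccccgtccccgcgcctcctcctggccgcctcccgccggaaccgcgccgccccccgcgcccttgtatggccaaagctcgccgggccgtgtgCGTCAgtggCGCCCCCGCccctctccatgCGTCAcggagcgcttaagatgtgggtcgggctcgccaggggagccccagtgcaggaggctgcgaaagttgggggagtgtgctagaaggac
Nr4a2: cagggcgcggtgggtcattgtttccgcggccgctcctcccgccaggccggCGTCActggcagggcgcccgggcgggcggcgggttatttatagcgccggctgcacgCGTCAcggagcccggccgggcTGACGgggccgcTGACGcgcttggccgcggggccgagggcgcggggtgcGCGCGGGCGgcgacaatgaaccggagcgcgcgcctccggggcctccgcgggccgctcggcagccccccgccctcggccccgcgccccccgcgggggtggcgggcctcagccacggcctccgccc
Nr4a3: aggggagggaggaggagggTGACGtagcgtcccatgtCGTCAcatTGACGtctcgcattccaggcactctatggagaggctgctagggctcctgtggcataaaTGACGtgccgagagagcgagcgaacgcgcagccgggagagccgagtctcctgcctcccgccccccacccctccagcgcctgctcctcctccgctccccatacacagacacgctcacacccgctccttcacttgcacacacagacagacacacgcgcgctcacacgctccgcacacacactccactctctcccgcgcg
Fosl2: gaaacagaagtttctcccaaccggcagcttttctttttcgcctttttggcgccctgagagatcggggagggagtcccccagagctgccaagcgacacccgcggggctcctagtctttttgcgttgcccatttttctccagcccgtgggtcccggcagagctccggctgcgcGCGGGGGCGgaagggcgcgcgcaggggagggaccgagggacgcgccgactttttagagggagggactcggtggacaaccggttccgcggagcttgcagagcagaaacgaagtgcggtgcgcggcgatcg
Fos: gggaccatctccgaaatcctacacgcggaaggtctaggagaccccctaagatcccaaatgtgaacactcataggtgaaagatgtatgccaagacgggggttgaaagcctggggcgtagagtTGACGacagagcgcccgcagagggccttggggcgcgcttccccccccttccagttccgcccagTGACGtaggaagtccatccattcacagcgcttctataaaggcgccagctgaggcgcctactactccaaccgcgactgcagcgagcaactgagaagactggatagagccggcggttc

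Each of the 3 NR4A promoters held 4 CRE cores, and 4 or more were found in 76 of 32851 promoters (0.231%). Fos held 2, at -129 and -66 from the start, Fosb, Junb and Atf3 held 1 each, and Jun and Fosl2 held 0. At least 1 core was thus present in 7 of 9 genes, against 20.8% of all promoters. An EGR site was present in 4 of 9, namely Nr4a1, Nr4a2, Fosl2 and Fosb, against 5.55% of promoters. The whole palindrome TGACGTCA, which contains the core, was in 0 of 9 (1.79% of all promoters), the AP-1 site TGANTCA in 0 of 9 (7.81%), the CArG box in 0 of 9 (1.63%) and the NBRE AAAGGTCA in 0 of 9 (1.51%). Both strands were searched and the marked sites do not overlap. These counts describe the letters of a short window.

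Libraries held 21516819 to 43014516 counts. Transgene females and flox females were counted in a table each and all males in another, so table and genotype cannot be told apart in females. Table and sex cannot be told apart either. Titles and treatment fields disagree for 3 transgene males, vehicle control in the former and tamoxifen in the latter. They were grouped by title, and every comparison with that group rests on this reading. Titles of the 6 flox males read WT against floxed alleles in the genotype field. Numb lay between 15.7 and 25.1 CPM and Numbl between 2.66 and 6.50 CPM in the 24 libraries, in counts over whole genes that do not separate the floxed part. Esr1, the estrogen receptor gene from which part of the transgene is made, lay at 392 CPM or more in all transgene libraries and at 42.5 CPM or less in all flox libraries. Summed over 10 muscle fibre markers the libraries held 132039 to 230850 CPM.

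Among the libraries, flox male vehicle library 3 stood apart before any comparison. It was the highest of 24 for Fosl2, Jun, Junb, Nr4a1, Nr4a2, Nr4a3 and Atf3, 7 of the 10 genes, against 6.45% of all genes. Of 10 heat shock genes, which encode chaperones, all 10 were highest there, with Hspa1a at 255 CPM against 1.14 to 10.7 CPM in the other 23 libraries. It was highest for 8 of 21 other immediate early transcription factors and for 0 of 28 upstream kinases and factors. Of the markers of 10 non-fibre cell types and tissues, 1 was highest there, the Schwann cell gene S100b. Results that rest on this library are given with and without it. Transgene male vehicle library 2 was the highest of 24 for the other 3 genes, Fos, Fosb and Egr1, against 2.29% of genes. Transgene female vehicle library 1 was the lowest of its group for 10 of 10, against 30% of genes.

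**Figure D1:**
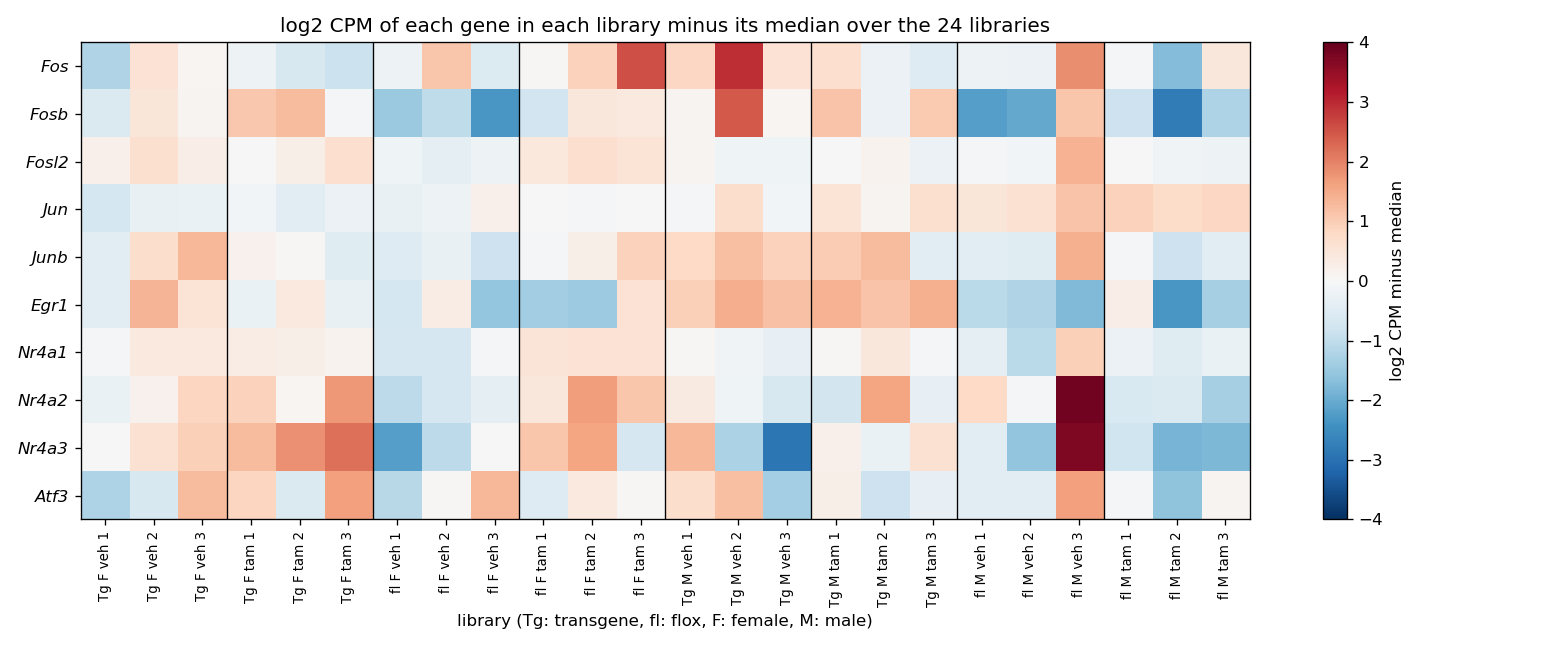
Each cell is the log2 CPM of a gene (row) in a library (column) minus that gene's median over the 24 libraries, red for above and blue for below. Tg is transgene and fl is flox. Flox male vehicle library 3 is dark red for Nr4a2 and Nr4a3, and transgene male vehicle library 2 for Fos and Fosb.

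Compared per kilobase of exon, the nuclear receptor Nr4a1 was by far the most abundant of the 10. It had a mean of 93.9 ± 30.5 CPM per kb (SD over 24 libraries) and 4196 to 18663 counts per library. Jun, which provides the main partner of FOS proteins, followed with 23.6 ± 8.43 CPM per kb. Junb had 7.13 ± 3.79, Atf3 5.21 ± 3.56, Nr4a3 4.51 ± 6.55, Fos 4.12 ± 4.40, Egr1 3.21 ± 2.29 and Fosl2 2.47 ± 0.855 CPM per kb. From Junb to Fosl2 each neighbour in this order differed by less than the SD of either, while the steps from Nr4a1 to Jun and from Jun to Junb exceeded both SDs. Nr4a2 had 1.02 ± 1.55 and Fosb 0.255 ± 0.240 CPM per kb, and their distances to the gene above were smaller than the SD of Nr4a2. Fosb rested on 5 to 197 counts per library, which makes it the least precise. In these bulk samples fewer cells of a type and less RNA per cell cannot be told apart.

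These genes varied more between libraries of 1 group than most genes did. The SD of log2 CPM within groups, pooled over the 8 groups, had a median of 0.88 over the 10, against 0.16 over 10783 genes whose mean log2 CPM was 1 or more. Of the 10, 9 reached that level. Fosb lay below it and is set here against genes with higher counts. It was 1.40 for Nr4a3, 1.06 for Atf3 and 1.004 for Fos, and 9 of the 10 lay in the top 10% of genes. Jun had the lowest value, 0.27, next to 0.35 for Fosl2 and 0.42 for Nr4a1. Without flox male vehicle library 3 the SD of Nr4a3 was 1.05, 7 of the 10 lay in the top 10%, and the lowest were Fosl2 at 0.19, Nr4a1 at 0.244 and Jun at 0.245. Between the lowest and the highest library Nr4a3 spanned 97.2-fold, from 1.98 to 193 CPM, Fosb 38.0-fold, Nr4a2 36.5-fold and Fos 25.6-fold. Fosl2 spanned 3.39-fold and Jun 3.60-fold. The labels do not say that libraries of a group are separate animals, so the p-values below measure the spread between these libraries.

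**Figure D2:**
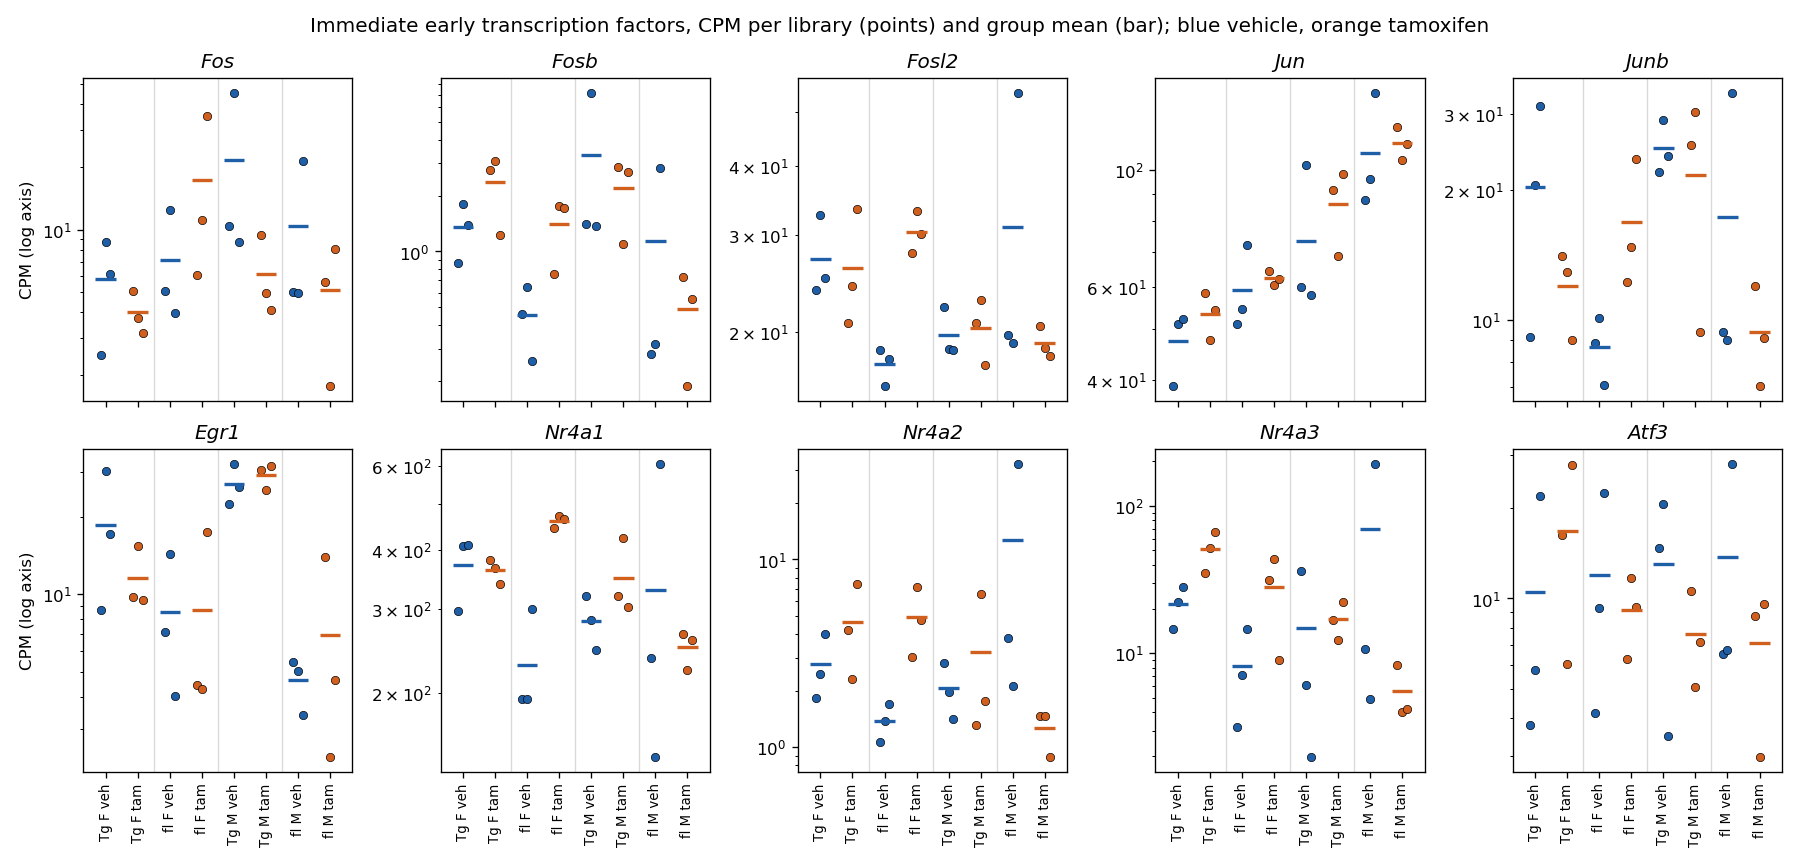
CPM of each gene (log axis, 1 panel per gene) in each library (points), with the group mean (bar), vehicle in blue and tamoxifen in orange. Fosb, Fosl2, Junb, Nr4a1 and Nr4a2 separate the flox female groups, Nr4a3 those of transgene females and Nr4a2 those of flox males. Egr1 separates transgene from flox males. The point of flox male vehicle library 3 lies far above its group for Nr4a2 and Nr4a3.

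In flox females, which have no recombinase, Fosl2 rose with tamoxifen. It encodes a FOS-family subunit whose induction lasts longer than that of Fos. In all, 5 of the 10, Fosb, Fosl2, Junb, Nr4a1 and Nr4a2, were higher in all 3 tamoxifen libraries than in any vehicle library. Such a separation upward occurred in 7.1% of the 14539 genes tested. By edgeR's quasi-likelihood test, adjusted over all genes tested, 1 of the 10 passed the threshold, against 0.131% of all genes. An unadjusted p under 0.05 was found for 5 of the 10, against 8.65% of genes. The log2 change was above 0 for 9 of 10, against 50.5% of genes, and its median was 0.98, against 0.00 over all genes. That group of genes was already known to lie high in these females when it was chosen, so the counts are a description.

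Fosl2 stood at 18.6, 16.0 and 17.9 CPM after vehicle and at 27.8, 33.1 and 30.1 CPM after tamoxifen. The groups did not overlap and each was narrow. The log2 change was 0.80 ± 0.098 (SE) with an adjusted p = 0.0218 by edgeR's quasi-likelihood test. The size of this rise stayed between 0.72 and 0.86 in the 13 alternatives, while 7 of them put the adjusted p above 0.05, at up to 0.497 with all 24 libraries in the fit. Without vehicle library 1, 2 or 3 the adjusted p was 0.0716, 0.116 and 0.0945, and without tamoxifen library 3 it was 0.0944.

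The 3 nuclear receptors had positive values in the same animals without passing. Nr4a1 lay at 194, 195 and 300.4 CPM after vehicle and at 444, 470.0 and 465 CPM after tamoxifen, with vehicle library 3 apart from the other 2. Its log2 difference was 1.002 ± 0.16 and did not pass (adjusted p = 0.0896). For Nr4a2 the vehicle values were 1.06, 1.37 and 1.69 CPM and the tamoxifen values 3.01, 7.10 and 4.78 CPM. The lowest tamoxifen library thus lay above the highest vehicle library, with a log2 difference of 1.85 ± 0.33 (adjusted p = 0.132). Nr4a3 had 3.16, 7.08 and 14.5 CPM and 31.5, 43.7 and 9.05 CPM, and here the third tamoxifen library fell inside the vehicle range, with a difference of 1.76 ± 0.86 (adjusted p = 0.667). DESeq2 put 5 of the 10 past the threshold, where it called 145 of all genes against 19 by edgeR. Its adjusted p was 1.17e-07 for Nr4a1 and 3.22e-06 for Nr4a2. Limma-voom put 1 past the threshold, where it called 10 of all genes. Without tamoxifen library 1 edgeR called 3, with Nr4a2 at 2.11 and Fosb at 1.95. Without vehicle library 3 it called Nr4a1 in place of Fosl2, at 1.23 (adjusted p = 0.00384). The count of all genes called also changed between such fits, over a range given with the processing below.

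Of the other AP-1 subunits, Junb, which can restrain JUN activity, had 8.85, 10.1 and 7.06 CPM after vehicle and 12.3, 14.7 and 23.6 CPM after tamoxifen in flox females, a log2 difference of 0.96 ± 0.27 (adjusted p = 0.402). Fosb went from 0.463, 0.644 and 0.256 CPM to 0.759, 1.77 and 1.72 CPM, a difference of 1.65 ± 0.42 at low counts (adjusted p = 0.309). Both separated the groups without passing edgeR's test. DESeq2 called both, with an adjusted p = 0.00399 for Junb and 0.0423 for Fosb, and limma-voom called neither. Of 13 alternatives, 2 called Junb and 3 called Fosb. Fos itself overlapped, at 5.07, 12.5 and 3.99 CPM against 6.07, 11.1 and 35.0 CPM, with the third tamoxifen library far above the rest. Jun lay at 51.0, 54.5 and 72.2 CPM and 64.4, 60.5 and 62.1 CPM, a difference of 0.075 ± 0.12. Egr1 (0.042 ± 0.83) and Atf3 (-0.38 ± 0.69) also overlapped. Part of Junb (173 exon bases) overlaps Prdx2 and part of Jun (232 bases) overlaps the antisense gene Junos, and with the strand setting of the counting not given, reads in those stretches are uncertain.

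In transgene females, in which the recombinase is present, 0 of the 10 genes passed edgeR's test, against 1.32% of 14211 genes, and 1 had an unadjusted p under 0.05, against 16.8% of genes. DESeq2 called 1 and limma-voom 0. That gene was Nr4a3, at 14.6, 22.3 and 28.3 CPM after vehicle and 35.0, 51.7 and 66.4 CPM after tamoxifen. Every tamoxifen library lay above every vehicle library, as in 9.86% of genes, and the log2 difference was 1.24 ± 0.33 (adjusted p = 0.155; 5.85e-05 by DESeq2, and 0.088 to 0.675 in the other 11 alternatives).

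The other 9 overlapped between the transgene female groups. Nr4a1 had 297, 408 and 409 CPM after vehicle and 381, 367 and 339.8 CPM after tamoxifen, a difference of -0.020 ± 0.13. Fosl2 had 23.9, 32.6 and 25.04 CPM and 20.8, 24.2 and 33.4 CPM, a difference of -0.043 ± 0.20. Neither gene separated the groups here. Fos (-0.52), Junb (-0.75) and Egr1 (-0.68) had negative differences, and Fosb (0.81), Nr4a2 (0.76), Atf3 (0.70) and Jun (0.19) positive ones, none past the threshold. The median over the 10 was 0.08, against 0.01 over all genes.

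Whether the 2 female responses differed was tested as an interaction over 12 female libraries, transgene minus flox. By edgeR 0 of the 10 passed, as did 0% of 15182 genes, while 3 had an unadjusted p under 0.05, against 7.54% of genes. DESeq2 called 1 and limma-voom 0. The 3 were Nr4a1 at -1.02 ± 0.23 (adjusted p = 0.339; 0.00723 by DESeq2), Fosl2 at -0.84 ± 0.23 (adjusted p = 0.423) and Junb at -1.71 ± 0.60 (adjusted p = 0.555). The rise of Fosl2 in flox females is therefore not shown to differ from the value in transgene females.

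**Figure D3:**
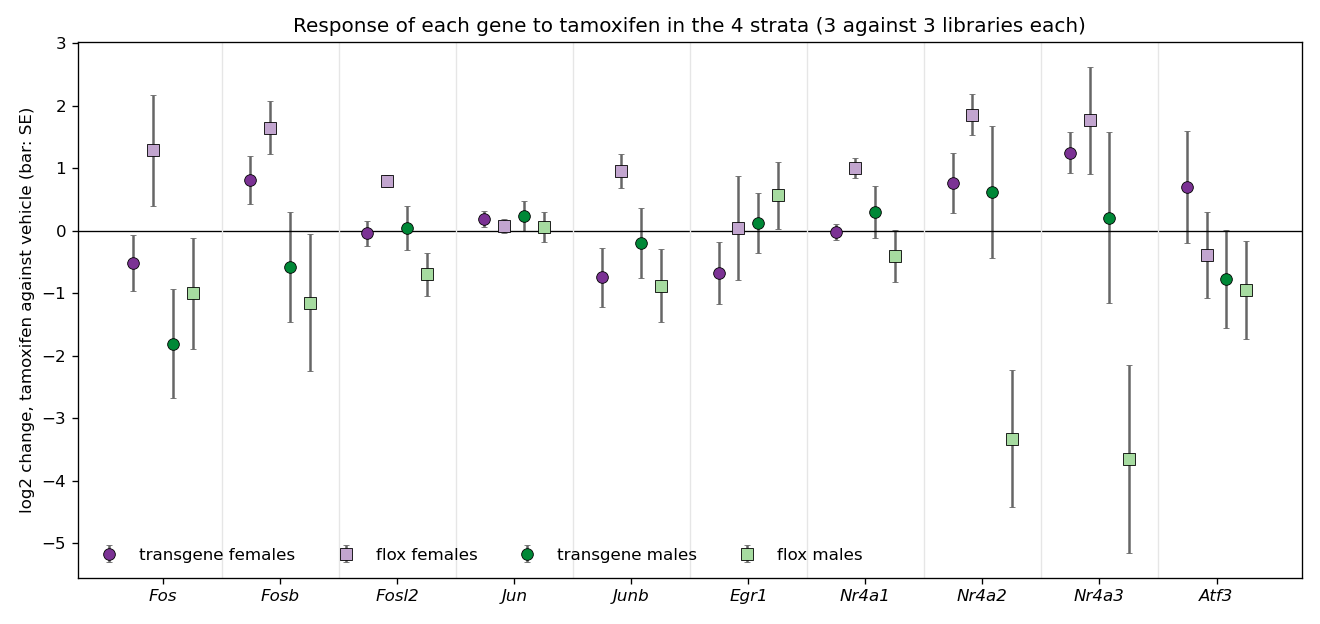
Log2 change of each gene with tamoxifen against vehicle in the 4 strata (3 against 3 libraries each), with bars of 1 SE. Of these values 1 passed the test, Fosl2 in flox females at 0.80, and the values of Nr4a2 and Nr4a3 in flox males, -3.32 and -3.65, rest on a vehicle group that contains 1 library far above the others.

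In flox males most of these genes had values below 0, and for 5 of them the sign turned when 1 vehicle library was left out. With all libraries 8 of 10 had a negative log2 difference, with a median of -0.91 against -0.01 over all genes. None of the 10 passed edgeR's test, against 2.89% of 15628 genes. At an unadjusted p under 0.05 there were 2, a share close to the 17.5% of all genes, and DESeq2 called 1 and limma-voom 0. Nr4a2 had 3.80, 2.10 and 32.4 CPM after vehicle and 1.46, 1.47 and 0.885 CPM after tamoxifen. The groups did not overlap, as for 14.2% of genes in this direction, and the log2 difference was -3.32 ± 1.09 (adjusted p = 0.159; 0.0178 by DESeq2, the 1 alternative of 12 under 0.05). Without vehicle library 3 it was -1.23 (adjusted p = 0.39).

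Nr4a3 had 10.8, 4.91 and 193 CPM after vehicle and 8.38, 4.02 and 4.20 CPM after tamoxifen in flox males. Its log2 difference of -3.65 ± 1.501 (adjusted p = 0.255) shrank to -0.52 without vehicle library 3. Nr4a1 had 237, 147 and 606 CPM and 266, 224 and 258 CPM, and its difference turned from -0.41 to 0.37 when that library was left out. Fosl2, at 19.8, 19.1 and 54.1 CPM against 20.5, 18.7 and 18.1 CPM, went from -0.70 to -0.037. Likewise Fos went from -1.003 to 0.031, Fosb from -1.15 to 0.69, Junb from -0.88 to 0.012 and Atf3 from -0.95 to 0.088. Without vehicle library 3 no fall of Fosl2 is shown in flox males, at -0.037 (adjusted p = 0.928 by edgeR).

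Transgene males showed no gene of the 10 past the threshold, against 0.889% of genes. None had an unadjusted p under 0.05, against 10.1% of genes. DESeq2 and limma-voom called 0 as well. Fos had the lowest value, a log2 difference of -1.80 ± 0.88 (adjusted p = 0.551), from 10.5, 45.2 and 8.72 CPM after vehicle to 9.36, 4.95 and 4.09 CPM after tamoxifen. Vehicle library 2 stood far above the others, and without it the difference was -0.63. That library was high for Fosb too, at 1.40, 7.14 and 1.36 CPM against 2.84, 1.10 and 2.68 CPM, where the difference turned from -0.58 to 0.69 without it. The NR4A genes overlapped between the groups, with differences of 0.30 for Nr4a1, 0.61 for Nr4a2 and 0.21 for Nr4a3. Fosl2, at 0.044, and Jun, at 0.24, were close to 0 on this scale. The male interaction called 0 of the 10, against 0.0128% of genes; 1, Nr4a2 at 3.94 ± 1.51 (adjusted p = 0.555), had an unadjusted p under 0.05, against 8.25% of genes, and DESeq2 and limma-voom called 0. Without flox male vehicle library 3 that value was 1.85.

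Egr1 levels separated transgene from flox males. After vehicle it lay at 22.4, 32.2 and 26.2 CPM in transgene males and at 5.47, 5.05 and 3.40 CPM in flox males. These groups did not overlap, as for 11.3% of genes in this direction, and the log2 difference of 2.52 ± 0.53 missed the threshold in edgeR's test (adjusted p = 0.0687). It passed by DESeq2 (adjusted p = 0.000648) and by limma-voom (adjusted p = 0.0168). In the other 9 of 11 alternatives, all by edgeR, it did not pass, with an adjusted p of up to 0.197. Without flox male vehicle library 3 the adjusted p was 0.135. By edgeR 0 of the 10 passed between vehicle males, against 0.947% of genes, 3 had an unadjusted p under 0.05, against 17.2% of genes, and DESeq2 and limma-voom called 1 each. The other 2 of those 3 were Jun at -0.57 and Nr4a2 at -2.62, which were -0.34 and -0.52 without flox male vehicle library 3.

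A comparison of all 6 transgene with all 6 flox males, averaged over vehicle and tamoxifen, was added after these values were seen. After tamoxifen Egr1 lay at 30.5, 25.5 and 31.4 CPM in transgene males and at 13.9, 2.33 and 4.66 CPM in flox males. The 6 transgene males thus spanned 22.4 to 32.2 CPM with a median of 28.3 CPM, and the 6 flox males 2.33 to 13.9 CPM with a median of 4.85 CPM. No library overlapped, as for 2.33% of genes in this direction. The log2 difference was 2.29 ± 0.37 (adjusted p = 0.00665 by edgeR), 1 call of 10 against 10.5% of genes, and it was called in all 17 alternatives, with an adjusted p of at most 0.0214. Fosb, at 1.88 ± 0.70 (adjusted p = 0.116), Jun, at -0.48 ± 0.17 (adjusted p = 0.0959), and Junb, at 0.87 ± 0.40 (adjusted p = 0.201), overlapped and did not pass.

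The added comparison, run without flox male vehicle library 3, called 4 of the 10, against 9.74% of 15991 genes: Egr1, Fosb at 2.81 (adjusted p = 0.0254), Junb at 1.32 (adjusted p = 0.0278) and Nr4a1 at 0.52 (adjusted p = 0.0378). Without transgene male vehicle library 2 it called Egr1 and Jun, the latter at -0.63. Other list genes also differed with genotype. Of 28 upstream kinases and factors 9 were higher in transgene males and 0 lower, where 822 of all 15628 genes were higher, among them Mef2c by 0.41 ± 0.069 and Atf1 by 0.30 ± 0.059. Srf, the gene of serum response factor, had a positive value that did not pass (0.17 ± 0.065, adjusted p = 0.106 by edgeR). The part of any of these genes in the Egr1 level was not tested. Errfi1, a feedback inhibitor of the EGF receptor, was higher by 0.67 ± 0.11, and Batf, an AP-1 zipper protein of immune cells, was lower by 2.30 on the log2 scale. Of 5 blood genes 2 were lower in transgene males by edgeR and 5 by DESeq2. All 5 had an unadjusted p under 0.05, against 27.9% of all genes. Their summed level was 293 to 627 CPM in transgene males against 482 to 1068 CPM in flox males. The fibre marker Pvalb, a calcium buffer of fast fibres, was higher by 0.54 ± 0.14, the collagen gene Col3a1 was higher and the monocyte gene Cd14 lower. Without flox male vehicle library 3 Col3a1 and Cd14 had adjusted p = 0.0711 and 0.0678 by edgeR. The 6 adipocyte markers had a median log2 difference of -1.62. By edgeR 0 of them were called and 4 had an unadjusted p under 0.05, against 27.9% of all genes. DESeq2 called 1 of them and limma-voom 0. The part of these markers in the result was not tested. The transgene and any other difference between these sets of males cannot be told apart.

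Over the 4 strata with equal weight, the mean response to tamoxifen called 0 of the 10, against 8.83% of 16670 genes. None had an unadjusted p under 0.05, against 22.3% of genes, and DESeq2 and limma-voom called 0. The values ran from -0.51 ± 0.41 for Fos to 0.22 ± 0.17 for Nr4a1. Without flox male vehicle library 3 Nr4a1 passed, at 0.41 (adjusted p = 0.00921), while the adjusted p lay between 0.288 and 0.862 in the other 29 alternatives. The difference of the responses between the sexes, male minus female, called 0 of the 10 by edgeR, against 0.708% of genes, with 5 at an unadjusted p under 0.05, against 12% of genes, 1 call by DESeq2 and 0 by limma-voom. All 5 were negative: Nr4a3 at -3.22 ± 1.11, Nr4a2 at -2.65 ± 0.84 (adjusted p = 0.186; 0.0377 by DESeq2), Fosb at -2.08 ± 0.80, Fos at -1.78 ± 0.83 and Fosl2 at -0.69 ± 0.29. Leaving out flox male vehicle library 3 gave -1.64, -1.60, -1.15, -1.26 and -0.36. Males and females were counted in different tables, so sex and table cannot be told apart in this difference.

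Other immediate early genes were read from further lists. In flox females, of 20 other immediate early transcription factors tested, 2 rose and 0 fell, where 0.131% of all genes were called, with a median log2 change of 0.26 against 0.00 over all genes. In this list 6 had an unadjusted p under 0.05, against 8.65% of all genes, and DESeq2 called 4 and limma-voom 1. Per1, a clock gene that cAMP and glucocorticoids induce, went from 35.9, 42.9 and 48.9 CPM to 138, 157 and 177 CPM, a rise of 1.89 ± 0.13 (adjusted p = 0.00117). Klf6, a Krüppel-like factor, went from 22.6, 27.8 and 28.3 CPM to 39.4, 47.0 and 49.5 CPM, a rise of 0.79 ± 0.12 (adjusted p = 0.0436 by edgeR, 0.096 by limma-voom). Neither group pair overlapped. Of 27 immediate early effectors, 28 upstream factors, 15 other zipper partners, 14 contraction-responsive genes and 10 heat shock genes, 0 passed edgeR's test in flox females. At an unadjusted p under 0.05, found for 8.65% of all genes, these lists held 5, 0, 2, 4 and 1. DESeq2 called 4, 0, 0, 1 and 1, and limma-voom called 0 in each. Markers of fibres and other cell types gave 0 calls by edgeR, DESeq2 or limma-voom, with 4 fibroblast and 1 tendon markers at an unadjusted p under 0.05 and summed levels such as 27.5 to 33.3 CPM for macrophages after tamoxifen against 31.7 to 38.8 CPM after vehicle.

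In transgene females several of these lists gave a call. Bhlhe40, a clock-linked repressor, fell (-0.49 ± 0.094), as did the chaperone gene Hsph1 (-1.01 ± 0.16), while Atf5 rose by 0.57 ± 0.10. By limma-voom Bhlhe40 and Atf5 did not pass (adjusted p = 0.0575 and 0.0511). The neutrophil marker S100a9, 1 of 3 tested, also rose there by edgeR (adjusted p = 0.0347; 0.0569 by limma-voom), and the 6 neutrophil markers summed to 3.18 to 5.05 CPM after tamoxifen against 1.48 to 1.85 CPM after vehicle. Their part in the values of the 10 genes was not tested. Flox males had a rise of Cebpd, an acute-phase factor gene, from 7.27, 5.68 and 7.77 CPM to 20.7, 20.5 and 23.4 CPM (1.64 ± 0.24; adjusted p = 0.00496). Srf fell there (-0.40 ± 0.093), the calcineurin gene Ppp3ca rose by 0.55 ± 0.13 and Hsph1 fell (-1.53 ± 0.34). Without flox male vehicle library 3, which had the highest Hsph1 level of all libraries, Hsph1 was -1.12 (adjusted p = 0.0897) and Srf -0.41 (adjusted p = 0.0705), neither past the threshold, while Cebpd, at 1.72, and Ppp3ca, at 0.62, passed. In transgene males these 6 lists gave 0 calls by edgeR. Of all genes 10.1% had an unadjusted p under 0.05 there. In these lists 2 other immediate early factors, 2 effectors, 1 upstream factor, 1 zipper partner, 1 contraction gene and 0 heat shock genes did. DESeq2 called 2 effectors and limma-voom 1. Between vehicle males Cebpd was higher with the transgene, by 2.11 ± 0.24 (adjusted p = 0.00182). Over all 4 strata Per1 rose by 0.77 ± 0.23, Klf6 by 0.36 ± 0.085, Ier3 by 0.41 ± 0.12 and Ppp3ca by 0.27 ± 0.067, while 0 of the 10 passed. Hsph1 (-0.83 ± 0.14), the lipid enzyme gene Lpin1 (-0.31 ± 0.088) and the CREB-family gene Atf1 (-0.14 ± 0.042) fell, Lpin1 with an adjusted p = 0.0557 without flox male vehicle library 3 and Ier3 with 0.0606 by limma-voom. Of the cell markers, 1 of 8 endothelial and 1 of 8 macrophage genes fell and 1 of 5 tendon genes rose. The macrophage gene, Cd68, did not pass by limma-voom (adjusted p = 0.0566). Nor did it pass by edgeR without flox male vehicle library 3 (adjusted p = 0.0533). The part of these markers in the values of the 10 was not tested.

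The 10 genes tended to deviate together from their group means. Over 24 libraries the 45 pairs had a median Pearson r of 0.461, and 41 were above 0. Without flox male vehicle library 3 the median was 0.254, and 33 were above 0. The highest values were those of Fos with Fosb, Nr4a1 with Nr4a2, Fosl2 with Nr4a2 (0.809, and 0.519 without that library) and Fosl2 with Nr4a1 (0.792, and 0.304). Fosl2 was less close to Fos, at 0.356 (-0.0023), and to Fosb, at 0.440 (-0.223). Fos and Fosb correlated at 0.834 (0.807 without that library), Fos and Junb at 0.714 (0.636) and Fos and Egr1 at 0.583 (0.727). The 3 NR4A pairs lay between 0.667 and 0.821, with a median of 0.766 that dropped to 0.485. Egr1 had r of -0.105 with Nr4a1, -0.172 with Nr4a2 and -0.218 with Nr4a3, and of 0.048, -0.082 and -0.150 without that library. Jun paired most closely with Atf3, at 0.734 (0.676). The points share library, depth and scaling, so these values are descriptions with no test.

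**Figure D4:**
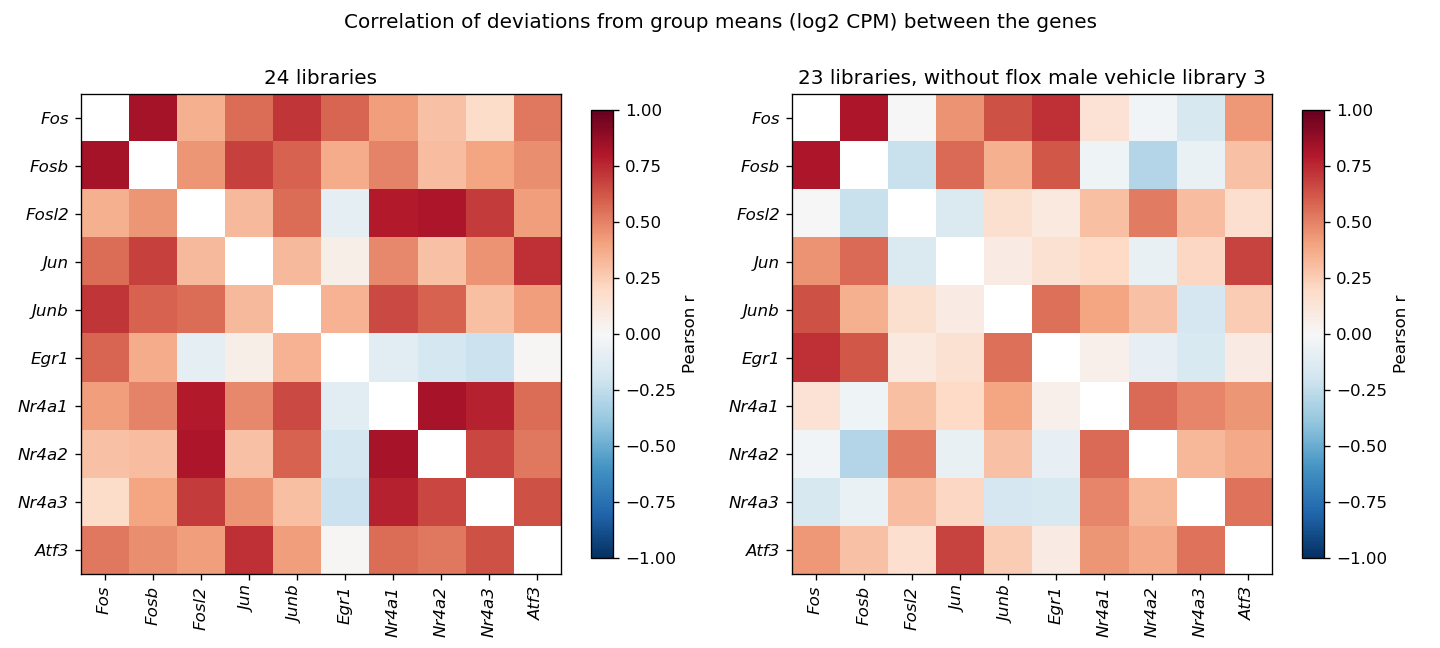
Pearson r between the deviations of 2 genes from their group means in log2 CPM, over 24 libraries (left) and over 23 without flox male vehicle library 3 (right). Fos with Fosb stays dark red on both sides, and the NR4A genes with Fosl2 lose much of their colour on the right.

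Among genes outside the 10, those with at least a mean log2 CPM of 1 were ranked by their correlation with the mean of the 10 over the 24 libraries. The closest were Hspa1b at 0.892 and Hspa1a at 0.881, a pair of near-identical heat shock genes whose reads may be split. Then came Sik1, a kinase gene that cAMP induces, at 0.861, Dedd2 at 0.844, Coq10b at 0.837, Per1 at 0.835, the phosphate transporter gene Slc20a1 at 0.828 and Btg2, an antiproliferative immediate early gene, at 0.827. In the 23 libraries without flox male vehicle library 3 these 8 values were 0.724, 0.686, 0.683, 0.591, 0.728, 0.660, 0.738 and 0.719. For single genes, Egr1 was closest to Ccn1, a matricellular immediate early gene, at 0.803 (0.803 without that library), Atf3 to the actin-linked gene Abra at 0.854 (0.838) and Fos to Ccnl1 at 0.861 (0.838). Nr4a1 was closest to Dedd2 at 0.900 (0.656), Nr4a2 to the antioxidant factor gene Nfe2l2 at 0.881 (0.734), Nr4a3 to Bpnt1 at 0.869 (0.752) and Fosl2 to Impact at 0.910 (0.620). Jun was closest to Cep85l at 0.785 (0.721), Junb to Coq8b at 0.757 (0.711) and Fosb to Fos. Ranked without flox male vehicle library 3, the closest gene was another one for 9 of the 10, all but Egr1. Nr4a1 was then closest to Rfc4, at 0.737 (0.488 with all libraries), and Fosl2 to Evi2a, at 0.821 (0.092).

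For reference, on GRCm38 with the GENCODE M21 annotation the genes lie as follows, all protein coding, with levels counted over their exons. Fos spans bases 85473890 to 85477273 of chromosome 12 on the plus strand, Fosb 19302696 to 19310051 of chromosome 7 on the minus strand, and Fosl2 32135801 to 32157842 of chromosome 5 on the plus strand. Jun spans 95049034 to 95052222 of chromosome 4 and Junb 84974484 to 84978718 of chromosome 8, both on the minus strand. Egr1 spans 34859823 to 34864984 of chromosome 18 on the plus strand. Nr4a1 spans 101254269 to 101274795 of chromosome 15 (plus strand), Nr4a2 57106830 to 57124003 of chromosome 2 (minus strand) and Nr4a3 48045153 to 48086447 of chromosome 4 (plus strand). Atf3 spans 191170296 to 191218039 of chromosome 1 on the minus strand.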

How the data were processed

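RNA from 24 gastrocnemius muscles frozen in liquid nitrogen was sequenced as total RNA, per the labels' protocols. The authors deposited whole-number read counts per Ensembl gene, not normalized, in 3 tables. The submitters' processing notes name STAR, featureCounts, limma and the builds GRCm38 and mm10. For library kit, strand setting and multiply mapped reads, nothing is stated in the sources used here. Of 54752 identifiers 54723 matched a symbol in GENCODE M21.

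The deposited counts were scaled by TMM over all 24 libraries to CPM, and log2 CPM used a prior count of 2. Genes were tested with edgeR 4.0.16 in R 4.3.3 (filterByExpr with minimum count 10 and minimum total count 15, robust quasi-likelihood F-test, Benjamini-Hochberg adjustment over all genes tested, threshold 0.05), and the SE is the log2 change divided by the square root of F. All 10 genes passed the filter in every fit. Comparisons within female genotypes used the 6 libraries of their table, male comparisons all 12 males, the female interaction all 12 females, and the mean response and sex difference all 24 libraries. Alternatives were DESeq2 1.42.0, limma-voom (limma 3.58.1), DESeq2's size factors in edgeR, library totals, no filter, other sets of libraries, a replicate block in flox females, and leaving out each library. The procedure was tested on simulated data. The genes, the lists and the tests were chosen with earlier results of these data known. From each list up to 4 genes with the smallest p among those past the threshold could be named. Some genes of these lists are not reported here. Library totals limit the precision to counting error at best, which is largest for Fosb.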

Additional observations from a re-analysis of the deposited data

Results flagged for a closer look

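Nr4a2 had values of opposite sign in the flox animals of the 2 sexes, neither past the threshold. In flox females every tamoxifen library lay above every vehicle library, with a log2 change of 1.85, and in flox males every tamoxifen library lay below every vehicle library, with a log2 change of -3.32. The difference between the flox responses of the sexes was not tested by itself, and sex and count table cannot be told apart in it. Averaged over both genotypes, the male minus female difference was -2.65 ± 0.84 (SE), with an adjusted p = 0.186 by edgeR's quasi-likelihood test. In flox males the tamoxifen libraries, at 1.46, 1.47 and 0.885 CPM, were also below the 2 vehicle libraries that remain without vehicle library 3, at 3.80 and 2.10 CPM, with a log2 change of -1.23 (adjusted p = 0.39).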

How the results depend on the processing

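Depth and spread limit these results: Fosb had 5 to 197 counts per library, and 3 libraries a group with within-group SDs of up to 1.40 on the log2 scale leave wide errors. Counts of all genes called changed with the tool. DESeq2 called 679 in transgene and 145 in flox females, 328 in transgene and 871 in flox males, 601 between vehicle males, 45 and 79 in the female and male interactions and 312 for the sex difference. Limma-voom called 10 in flox females and 0 in the male interaction, library totals 4 in flox females, and DESeq2's size factors 1 in the female interaction. With no filter the counts were 941 in transgene and 329 in flox females, 221 in transgene males, 327 between vehicle males, and 20 and 38 in the interactions. With all 24 libraries they were 360 in transgene and 4 in flox females, and with only the 6 libraries of a male stratum 27 in transgene and 917 in flox males.

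Of the 10 genes, DESeq2 called 1 in transgene and 5 in flox females, 1 in flox males, 1 between vehicle males, 1 in the female interaction, 1 for the sex difference and 2 between all males. Limma-voom called 1 each in flox females, between vehicle males and between all males. Of all genes edgeR called 10.5% between all males and 0.947% between vehicle males. The shares for limma-voom in these 2 comparisons, and for DESeq2 between all males, are not given here. In flox females the count was 5 with no filter and 0 with library totals or with all 24 libraries. The labels do not say whether the replicate numbers of flox females pair the libraries. Pearson correlations of deviations between same-numbered libraries were -0.198, -0.0309 and -0.102 over 14539 genes. Between differently numbered libraries they ran from -0.0724 to 0.177. Deviations from means of 3 libraries cannot settle whether the libraries are paired. With the number as a block, 15 genes and 0 of the 10 were called against 19 and 1, and Egr1 was -0.15. In that fit edgeR gave an adjusted p = 0.0795 for Fosl2 and 0.068 for Nr4a2. Other replicates carry no shared numbers.

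Leaving out 1 library, all genes called ranged from 37 to 215 in transgene and 3 to 87 in flox females, 68 to 151 in transgene and 143 to 349 in flox males, 44 to 139 between vehicle males, 0 to 2 and 2 to 8 in the interactions, 82 to 209 for the sex difference and 970.0 to 2121 between all males. Of the 10 genes it called 0 to 3 in flox females, 0 to 1 over all strata and 1 to 4 between all males. Directions of uncalled values also turned. Library totals gave 0.020 for Fosl2 and 0.044 for Nr4a1 in transgene females, and limma-voom -0.045 for Egr1 in flox females.
Without 1 library, the log2 change ranged in transgene females from -0.26 to 0.11 for Fosl2 and -0.16 to 0.051 for Nr4a1. It ranged in flox females from -0.024 to 0.23 for Jun, -0.97 to 0.65 for Egr1 and -0.79 to 0.44 for Atf3. It ranged in transgene males from -0.95 to 0.69 for Fosb, -0.30 to 2.08 for Nr4a3, -0.047 to 0.14 for Fosl2, -0.43 to 0.99 for Nr4a2 and -0.51 to 0.16 for Junb. It ranged in flox males from -0.076 to 0.28 for Jun, -1.496 to 0.031 for Fos, -1.62 to 0.69 for Fosb, -1.20 to 0.012 for Junb, -0.76 to 0.37 for Nr4a1, -1.28 to 0.088 for Atf3 and -0.41 to 0.98 for Egr1. It ranged between all males from -0.045 to 0.52 for Nr4a1.
The cause of these changes was not tested, beyond the samples or genes that an alternative removes.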
